A study of Saccharomyces cerevisiae with 8 samples.

Results

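Rap1 peaks lying between divergently transcribed genes numbered 434 of the 1240 peaks called in 4 Rap1 ChIP-seq libraries of Saccharomyces cerevisiae. A peak was counted when it lay on a nuclear chromosome with its midpoint over 50 kb from both chromosome ends (a core peak), its summit lay outside every protein-coding gene, and the flanking protein-coding genes pointed away from each other. Position and gene direction chose the peaks, and neither the height of a peak nor the culture time was used. The 434 peaks fell into 205 of the 1360 core intervals between divergent genes. An interval is the DNA between the start codons of the pair, and is named here by its left and right gene in the coordinates of genome release R64.

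Rap1 was immunoprecipitated with an anti-Rap1 antibody from formaldehyde-fixed bulk cells of strain JDY86, grown in YPD (rich glucose medium) at 30 °C for 14 d, a stationary culture, or for 16 h. There were 2 biological repeats at each time, and each of the 4 ChIP libraries had its own input library, which entered only through the authors' peak calling. JDY86 is the MATa parent of a histone mutant library, used for both times. By the study's description it carries auxotrophic alleles including those of HIS3, LEU2, TRP1, URA3 and MET15, a reporter at CAN1, a drug marker in place of the HHT1-HHF1 histone genes and a synthetic H3-H4 cassette with URA3 in place of HHT2-HHF2. The comparison addressed whether Rap1 sits at different places in chronologically aged and in young cultures.

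Rap1 is an essential DNA-binding protein that coats telomeric repeats, silences the mating-type cassettes and, elsewhere, activates many of the most strongly transcribed genes, among them those of cytosolic ribosomal proteins and of glycolysis. In the compact yeast genome a pair of divergent genes shares a single upstream region, so that a protein bound there lies upstream of both genes. A peak between divergent genes therefore does not by itself tell which of its neighbours it serves, and tandem neighbours, with 1 start codon facing the interval, are the nearest comparison.

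The libraries differed widely in depth. The genome background pileup, the number of fragments expected over a position without enrichment and a relative measure of depth, was 1.71 and 11.7 in the 14 d repeats 1 and 2, and 0.414 and 8.87 in the 16 h repeats 1 and 2. The 14 d library was 4.12 times as deep as the 16 h library in repeat 1 and 1.32 times in repeat 2, and repeat 2 was 6.88 times as deep as repeat 1 at 14 d and 21.4 times at 16 h. The lists held 109 and 564 peaks at 14 d, against 87 and 480 at 16 h, of which 77 and 474, against 56 and 406, were core peaks. The 14 d repeat 1 list also stood apart in that 19 of its 77 core peaks had the summit inside a gene and 14 peaks were mitochondrial. An interval missing from a list does not show that Rap1 was absent there. The part of depth in the short repeat 1 lists was not tested, and each value is therefore also given within its repeat.

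Divergent intervals held 31 and 200 peaks in the 14 d repeats and 28 and 175 in the 16 h repeats. They made up 40.3% (95% exact interval 29.2 to 52.1) and 42.2% (37.7 to 46.8) of the core peaks at 14 d, against 50% (36.3 to 63.7) and 43.1% (38.2 to 48.1) at 16 h. These intervals cover counting error only. The mean share was 41.2% ± 1.37 at 14 d and 46.6% ± 4.88 at 16 h (SD, n = 2 each). The difference of −5.32 percentage points was about as large as the spread between the 16 h repeats (two-sided exact permutation test over libraries, p = 0.333, the smallest p that 2 against 2 allows). Within repeats it was −9.74 points in repeat 1 and −0.909 in repeat 2, and without the 16 h repeat 1 library it was −1.88.

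In every library a larger share of divergent than of tandem or convergent intervals held a summit. The shares of divergent intervals were 2.28% and 14.1% in the 14 d repeats and 2.06% and 12.6% in the 16 h repeats. Over all 5212 core intergenic intervals of any direction, the share was 1.09% and 7.81% at 14 d, against 0.979% and 6.68% at 16 h. Tandem intervals held one in 1.00% and 8.33% at 14 d and in 0.881% and 6.89% at 16 h, and convergent intervals, which lie between gene ends, in at most 0.517%. The divergent share exceeded the tandem share by 3.50 ± 2.63 percentage points (SD over the 4 libraries), positive in 4 of 4 (two-sided exact sign-flip permutation test, p = 0.125, the smallest p that 4 libraries allow). It remained positive in 4 of 4 libraries without the intervals beside ribosomal protein genes, at 2.23 points.

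Counted per start codon, the order was not kept. A divergent interval faces 2 start codons and a tandem interval 1, and divergent intervals held 1.14 and 7.35 summits per 100 facing start codons at 14 d and 1.03 and 6.43 at 16 h. The tandem values were 1.04 and 8.41 at 14 d and 0.881 and 6.97 at 16 h, so that the mean difference was −0.33 (exact sign-flip permutation test, p = 0.5), with both repeat 2 libraries lower and both repeat 1 libraries higher for divergent intervals. Per kb of intergenic DNA the divergent intervals stayed ahead in 4 of 4 libraries, by 0.0421 summits. In the repeat 2 libraries and in the mean, the measure a statement uses thus decides its direction.

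**Figure D1:**
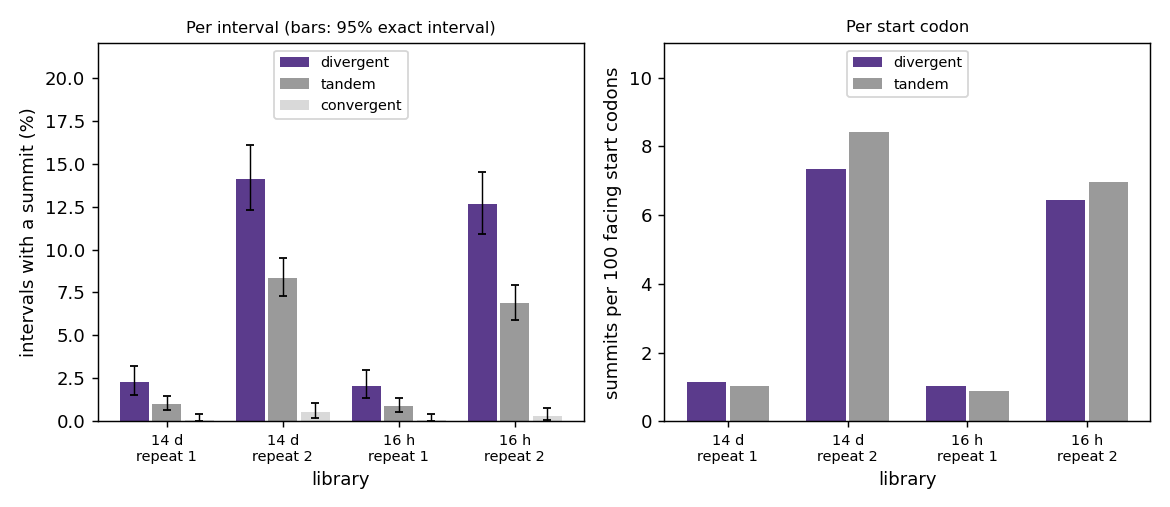
Left, percent of divergent, tandem and convergent core intervals that hold a Rap1 summit in each library (bars are percentages, whiskers exact 95% binomial intervals); right, summits per 100 start codons that face the interval. Divergent bars stand above tandem bars per interval in 4 of 4 libraries, and below them per start codon in both repeat 2 libraries.

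Occupied intervals were long ones. The 205 divergent intervals with a summit in any list had a median length of 866 bp, against 445 bp for those with none. Of the 223 divergent intervals of at most 250 bp, 0 held a summit in either repeat 2 list. Among those over 1500 bp, 40.4% held one at 14 d and 29.8% at 16 h. Between these ends the share in the 14 d repeat 2 list was 4.42% for 250 to 500 bp, 15.1% for 500 to 750 bp, 29.4% for 750 to 1000 bp and 36.8% for 1000 to 1500 bp. Divergent intervals as a class had a median length of 502 bp, against 395.5 bp for tandem and 226 bp for convergent intervals. Among intervals of 200 to 1000 bp the excess over tandem intervals was 2.21 percentage points, again positive in 4 of 4 libraries.

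The choice of peaks placed every summit inside the shared upstream region. Within it, summits lay mostly away from both start codons. Their distances were not compared with those of random positions in the same intervals. The median distance to the nearer start codon was 352 and 303.5 bp in the 14 d repeats and 313 and 280 bp in the 16 h repeats. The median to the farther one was 638 and 588 bp at 14 d and 651.5 and 532 bp at 16 h. The means of the nearer distance were 328 ± 34.3 bp at 14 d and 296.5 ± 23.3 bp at 16 h (SD, n = 2 each), a difference of 31.25 bp that was no larger than the spread between the 14 d repeats (exact permutation test, two-sided, p = 0.667). Within repeats it was 39 bp and 23.5 bp. It was 55.5 bp without the 14 d repeat 2 library, 47.75 bp without 16 h repeat 1, 14.75 bp without 16 h repeat 2 and 7 bp without 14 d repeat 1.

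Most summits were 150 to 500 bp from a start codon, in 64.5% and 72.5% of peaks at 14 d and in 64.3% and 74.3% at 16 h. Few were closer than 150 bp, with 2 and 22 peaks at 14 d and 5 and 18 at 16 h. When each interval was cut into 3 equal stretches, the middle one held 61.3% and 55.5% of the summits at 14 d and 53.6% and 60.6% at 16 h. As a percent of the interval's length the nearer distance had medians of 35.3% and 34.8% at 14 d and 37.6% and 35.2% at 16 h, and the difference of −1.39 points ran the other way from the difference in bp. In the 159 intervals listed in both repeat 2 libraries the summit moved by a median of 7 bp between 14 d and 16 h, and by at most 50 bp in 152 of them.

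The fold enrichment of a peak, the summit pileup over the local background with 1 added to each, had medians for divergent peaks of 10.2 and 9.46 in the 14 d repeats and 6.32 and 8.27 in the 16 h repeats. The log2 medians averaged 3.29 ± 0.07 at 14 d and 2.85 ± 0.27 at 16 h (SD, n = 2 each), and the difference of 0.44 was at the smallest p the design allows (exact permutation test, two-sided, p = 0.333). It was 0.68 in repeat 1 and 0.19 in repeat 2, in the order of the depth ratios, and 0.25 without the 16 h repeat 1 library. The part of depth in this difference was not tested. Measured as the log2 of the summit pileup over the genome background, the difference was −0.08 (exact permutation test, p = 1). The higher fold at 14 d thus depended on the measure.

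Divergent peaks ranked somewhat above tandem peaks within their own list. On a percentile scale among core peaks, where 100 is the highest fold, the median divergent peak stood at 48.1 and 55.8 in the 14 d repeats and 53.1 and 54.2 in the 16 h repeats. The median tandem peak stood at 47.4 and 46.9 at 14 d and 46.4 and 52.2 at 16 h. The mean difference was 4.56 ± 3.86 points (SD, 4 libraries), positive in 4 of 4 (exact sign-flip permutation test, two-sided, p = 0.125). It was 0.775 points (exact sign-flip permutation test, p = 0.875), negative in both repeat 1 libraries, when intervals holding a non-coding RNA gene were left out, and was −3.09 when only peaks with a −log10 q of at least 5 were kept. Among the 10 core peaks with the highest fold, divergent intervals held 4 and 7 at 14 d and 4 and 4 at 16 h. Their share of all core peaks was 40.3% and 42.2% at 14 d and 50% and 43.1% at 16 h. Only the 7 in 14 d repeat 2 thus stood clearly above that share.

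A core of 17 divergent intervals had a summit in all 4 lists. Their fold enrichment ran from 4.80 to 40.3 (median 13.3) and 14.8 to 52.7 (37.2) in the 14 d repeats, and from 3.45 to 14.9 (6.36) and 4.13 to 59.8 (27.0) in the 16 h repeats. The 14 d value was the higher one in 14 of 17 intervals in repeat 1 and in 14 of 17 in repeat 2. By summit pileup over the genome background it was higher in 7 and 10 of 17. Of the 17, 6 lie beside a cytosolic ribosomal protein gene, against 59 of the 205 with a summit in any list. Of the 17, 4 hold a non-coding RNA gene. Such intervals held 5 of 31 and 23 of 200 divergent peaks in the 14 d repeats, and 6 of 28 and 15 of 175 in the 16 h repeats. The share of all 1360 divergent intervals that hold one is not given here, so these counts show no excess.

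**Figure D2:**
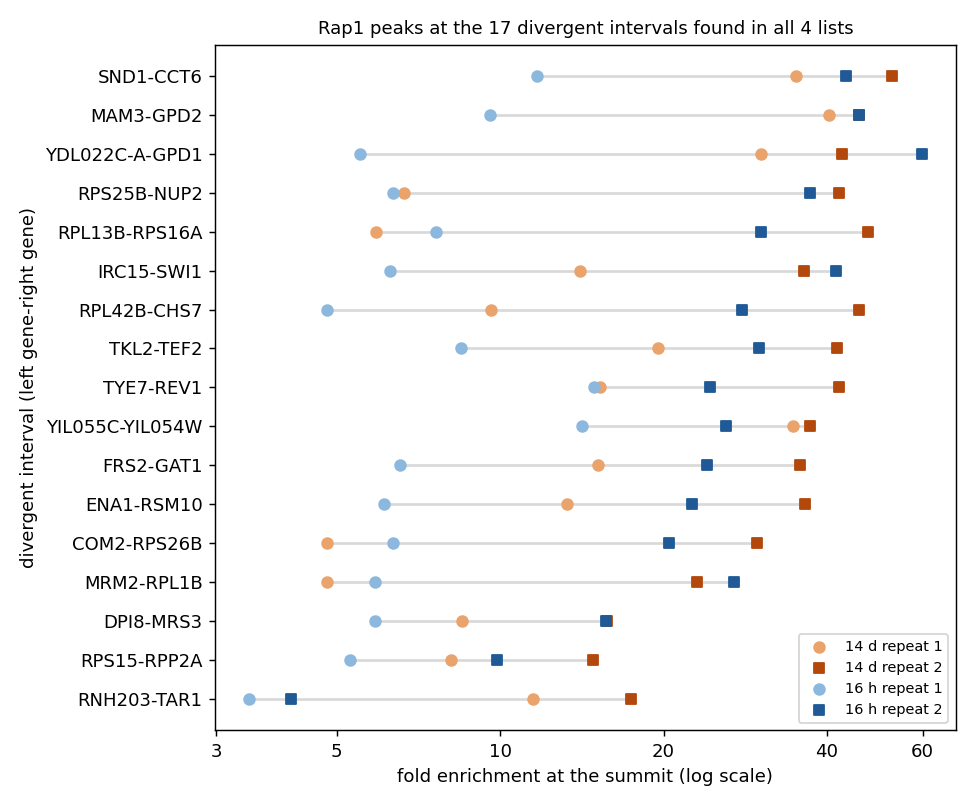
Fold enrichment at the summit (log axis) for the 17 divergent intervals found in all 4 lists, 1 row per interval ordered by rank in the repeat 2 lists; circles are repeat 1 and squares repeat 2, orange 14 d and blue 16 h. The repeat 2 squares lie to the right of the circles in most rows, and RNH203-TAR1 has the widest gap between 14 d and 16 h in repeat 2.

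The intervals of highest rank in the repeat 2 lists lay beside genes of several kinds. SND1-CCT6 (chrIV:835493-836420), between a gene for a protein that directs others to the endoplasmic reticulum and one for a subunit of the cytosolic chaperonin, had a fold of 35.1 and 52.7 at 14 d, against 11.7 and 43.3 at 16 h. It held the highest fold of any core peak in the 14 d repeat 2 list and rank 6 in the 16 h repeat 2 list. Its summit lay near the middle, 486 bp from the SND1 and 443 bp from the CCT6 start codon at 14 d, and 469 and 460 bp at 16 h.

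Both genes for glycerol-3-phosphate dehydrogenase, the enzyme that commits glycolytic carbon to glycerol, were in this group. The interval MAM3-GPD2 (chrXV:216138-217125) had a fold of 40.3 and 45.9 at 14 d, against 9.57 and 45.8 at 16 h, so that the times lay close together in repeat 2 and apart in repeat 1. YDL022C-A-GPD1 (chrIV:410057-411824), which also holds a tRNA gene, had 30.2 and 42.7 at 14 d, against 5.53 and 59.8 at 16 h. By fold, the order of the times turned round here between the repeats. By summit pileup over the genome background, the log2 difference, 14 d minus 16 h, was −0.16 in both repeats at YDL022C-A-GPD1. At MAM3-GPD2 it was 0.25 in repeat 1 and 0.10 in repeat 2. The GPD1 summit lay 366 bp from the GPD1 start codon at 14 d and 368 bp at 16 h, while the other start codon was 1403 and 1401 bp away.

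Ribosomal protein genes flanked 3 more of these intervals. RPS25B-NUP2 (chrXII:795900-797429), shared by a small-subunit protein and a nuclear pore protein and holding a tRNA gene, had a fold of 6.65 and 42.2 at 14 d, against 6.36 and 37.2 at 16 h. RPL13B-RPS16A (chrXIII:551208-551927), where both neighbours encode ribosomal proteins, had 5.91 and 47.6 at 14 d, against 7.64 and 30.3 at 16 h. RPL42B-CHS7 (chrVIII:382752-383537), whose other gene is needed for the export of chitin synthase, had 9.61 and 45.9 at 14 d, against 4.79 and 27.9 at 16 h. The repeat 1 values of all 3 are under 10 at both times, and by fold the 3 repeat 2 values are higher at 14 d. By summit pileup over the genome background, the log2 difference at RPS25B-NUP2 was −0.95 in repeat 1 and −0.10 in repeat 2. It was −1.46 and −0.14 at RPL13B-RPS16A, and −0.40 and 0.37 at RPL42B-CHS7. By that measure only RPL42B-CHS7 was higher at 14 d in repeat 2.

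IRC15-SWI1 (chrXVI:520234-521013), beside the gene for a subunit of the SWI/SNF chromatin remodeller, had 14.0 and 36.3 at 14 d, against 6.28 and 41.6 at 16 h. TKL2-TEF2 (chrII:476438-477670), between a transketolase gene and one of the genes for the translation elongation factor that brings tRNA to the ribosome, had 19.5 and 41.8 at 14 d, against 8.48 and 30.0 at 16 h. The TEF2 summit was 441 bp from TEF2 at 14 d and 438 bp at 16 h, against 793 and 796 bp from TKL2.

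Of the remaining intervals in the top 10 by mean rank over the repeat 2 lists, with a tie for the last place, none was in all 4 lists. RKI1-RPS7A (chrXV:504329-505793; ribose-5-phosphate isomerase and a small-subunit protein) had a fold of 35.6 at 14 d and 36.6 at 16 h in repeat 2 and was listed at 16 h in repeat 1, at 5.90. COA2-GUP2 (chrXVI:188514-189153) had 41.3 at 14 d and 27.0 at 16 h, and 6.82 in the 16 h repeat 1 list. FUN19-POP5 (chrI:81952-82705), beside a gene for a subunit of RNase P and RNase MRP, had 36.3 at 14 d and 31.4 at 16 h and was in neither repeat 1 list. High fold in the deep libraries thus went with a listed peak in only part of the shallow ones.

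Regulator genes and a pair of uncharacterised reading frames completed the stronger part of the 17. TYE7-REV1 (chrXV:978070-981827), beside the gene for Tye7, an activator of glycolytic genes, and also holding a tRNA gene, had a fold of 15.3 and 42.1 at 14 d, against 14.9 and 24.3 at 16 h. YIL055C-YIL054W (chrIX:253926-254542) had 34.6 and 37.2 at 14 d, against 14.1 and 26.0 at 16 h. FRS2-GAT1 (chrVI:95011-95965), between a phenylalanyl-tRNA synthetase gene and a gene for an activator of nitrogen-responsive genes, had 15.1 and 35.7 at 14 d, against 6.55 and 24.0 at 16 h. In each of these intervals the 14 d fold was the higher one in both repeats. By summit pileup over the genome background, TYE7-REV1 was lower at 14 d in repeat 1 (log2 difference −0.88) and higher in repeat 2 (0.36). FRS2-GAT1 was higher at 14 d in repeat 1 (0.11) and lower in repeat 2 (−0.16). Only YIL055C-YIL054W was higher at 14 d in both, at 0.57 and 0.45.

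ENA1-RSM10 (chrIV:538468-539802), between a sodium pump gene and a gene for a mitochondrial ribosomal protein, had 13.3 and 36.5 at 14 d, against 6.12 and 22.6 at 16 h. Of the ribosomal protein intervals, COM2-RPS26B (chrV:422447-423951) had 4.80 and 29.8 at 14 d, against 6.36 and 20.5 at 16 h. MRM2-RPL1B (chrVII:253860-254640) had 4.80 and 23.1 at 14 d, against 5.88 and 27.0 at 16 h. By fold, this was the one of the 17 in which 14 d was the lower time in both repeats. By summit pileup over the genome background, the log2 difference at MRM2-RPL1B was −1.63 in repeat 1 and −0.26 in repeat 2. Other intervals were also lower at 14 d in both repeats by that measure, among them IRC15-SWI1, at −0.53 and −0.23. By it, 14 d was the higher time in 7 of the 17 in repeat 1 and in 10 in repeat 2.

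DPI8-MRS3 (chrX:159848-160618), beside the gene for a mitochondrial iron carrier, had 8.50 and 15.7 at 14 d, against 5.88 and 15.7 at 16 h. RPS15-RPP2A (chrXV:253578-254296), where both genes encode ribosomal proteins, had 8.13 and 14.8 at 14 d, against 5.29 and 9.88 at 16 h. RNH203-TAR1 (chrXII:448315-454695), which holds ribosomal RNA genes of the repeated rDNA, had 11.5 and 17.4 at 14 d, against 3.45 and 4.13 at 16 h. The local background at its summit was 820 fragments at 14 d and 531 at 16 h in repeat 2, against genome backgrounds of 11.7 and 8.87, and reads of the many rDNA copies cannot be told apart. What part copy number has in its fold was not tested.

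Ribosomal protein genes were the group most often found beside a divergent peak. Of the 1360 intervals, 67 lie beside a cytosolic ribosomal protein gene. They held a summit in 6 and 59 at 14 d and in 12 and 59 at 16 h, that is in 8.96% and 88.1% at 14 d and in 17.9% and 88.1% at 16 h, against 2.28%, 14.1%, 2.06% and 12.6% of all divergent intervals in the same order. The 59 were the same intervals in both repeat 2 lists. Per start codon, 64 of 72 ribosomal protein starts facing a divergent interval had a summit in each repeat 2 list (88.9%, exact 95% interval 79.3 to 95.1), against 47 of 58 facing a tandem interval (81.0%, 68.6 to 90.1). These counting intervals overlap.

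Fold varied widely among the 59. In repeat 2, 54 of them had a fold of at least 10 at 14 d and 44 at 16 h. Next to the intervals given above, SOP4-RPS14B (chrX:73415-73786) had 33.9 at 14 d and 34.0 at 16 h, RPL19A-AAC3 (chrII:415262-415982) had 33.8 at 14 d and 20.0 at 16 h, and TEM1-RPS1B (chrXIII:145877-146481) had 29.1 at 14 d and 36.4 at 16 h. At the low end stood RPL18B-TOS6 (chrXIV:64563-65743), with 3.38 at 14 d and 4.56 at 16 h, RHO5-RPS3 (chrXIV:300650-302679), with 4.91 at 14 d and 4.29 at 16 h, and VRP1-RPP0 (chrXII:805107-805886), beside the gene of the ribosomal stalk protein P0, with 5.34 at 14 d and 3.95 at 16 h. The weak peaks were weak and the strong ones strong at both times (Spearman's rho 0.846 over the 59, a description), and every one of the 59 summits lay within 31 bp of its counterpart at the other time.

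Where ribosomal protein genes faced each other, the shared interval held a summit in both repeat 2 lists in 5 of 5 cases. RPS16B-RPL13A (chrIV:307790-308423) had a fold of 30.8 at 14 d and 33.7 at 16 h in repeat 2. RPL24A-RPL30 (chrVII:437935-439090) had 23.2 at 14 d and 20.9 at 16 h, and RPS22A-RPL39 (chrX:75303-75932) had 20.8 at 14 d and 30.3 at 16 h. The other 2 are RPL13B-RPS16A and RPS15-RPP2A, given above, whose summits stood 385 and 336 bp and 388 and 332 bp from the left and right start codons at 14 d.

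No summit was listed in 8 of the 67 in any library. They were COI1-RPP2B (chrIV:1238851-1239491), RPL15A-YLR030W (chrXII:202591-203289), RPL20A-YMR242W-A (chrXIII:754221-754296), YOR062C-RPL3 (chrXV:443532-444685), RPS28A-GLN4 (chrXV:649008-649302), RPS30B-FYV12 (chrXV:678794-678871), RPL33B-IRC13 (chrXV:779406-779869) and YPL080C-RPL21B (chrXVI:406499-406635). Short intervals recur among them, at 76, 78, 137 and 295 bp, but YOR062C-RPL3 spans 1154 bp. A summit inside the annotated partner gene, or across it, would not be counted here as divergent.

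In the repeat 2 lists the distance of the summit to the ribosomal protein gene varied less than that to its partner. In the intervals with 1 ribosomal protein gene, the median distance to its start codon was 349 bp (quartiles 281 to 421, 56 peaks) in the 14 d repeat 2 list and 351 bp (270 to 415, 54 peaks) in the 16 h repeat 2 list. The distance to the partner's start codon was 417.5 bp (226 to 627) at 14 d and 367 bp (214 to 606) at 16 h. In 14 d repeat 1, over only 4 peaks, the order of the spreads was the other way, with quartiles of 291.5 to 629 bp to the ribosomal protein gene and 539 to 821 bp to the partner. Between 200 and 500 bp from the ribosomal protein start lay 78.6% of these peaks at 14 d and 81.5% at 16 h. The ribosomal protein gene was the nearer neighbour in 28 of 56 peaks at 14 d and in 28 of 54 at 16 h in repeat 2. In the short repeat 1 lists it was the nearer one in 4 of 4 peaks at 14 d and in 8 of 9 at 16 h.

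**Figure D3:**
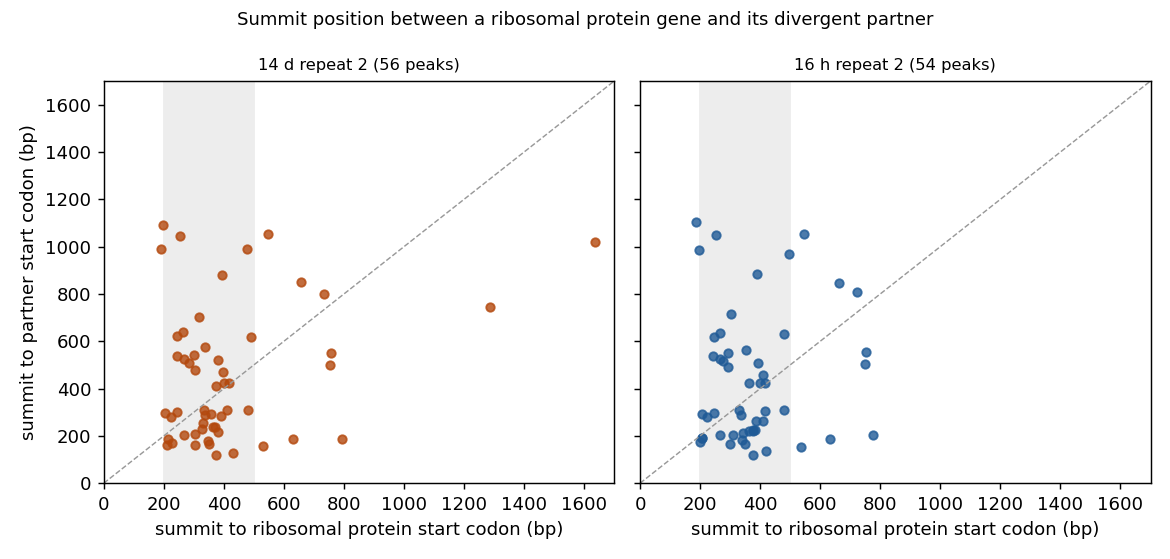
Distance from each summit to the start codon of the ribosomal protein gene (x axis, bp) and to that of its divergent partner (y axis, bp), in the 14 d repeat 2 (left) and 16 h repeat 2 (right) lists; each point is a peak, the dashed line marks equal distance and the grey band 200 to 500 bp. Most points lie inside the band at both times, on both sides of the dashed line.

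The rank of these peaks differed between the repeats. In the repeat 2 lists the peaks beside ribosomal protein genes had median folds of 19.3 at 14 d and 17.6 at 16 h, against 6.05 at 14 d and 5.88 at 16 h for the other divergent peaks. In the repeat 1 lists the medians were 6.28 at 14 d and 6.13 at 16 h, against 11.5 at 14 d and 6.42 at 16 h for the others. On the percentile scale the ribosomal protein peaks stood 37.4 points above the others at 14 d and 41.4 above at 16 h in repeat 2. In repeat 1 the differences were −37.0 points at 14 d, over only 6 ribosomal protein peaks, and −5.80 at 16 h, over 12.

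**Figure D4:**
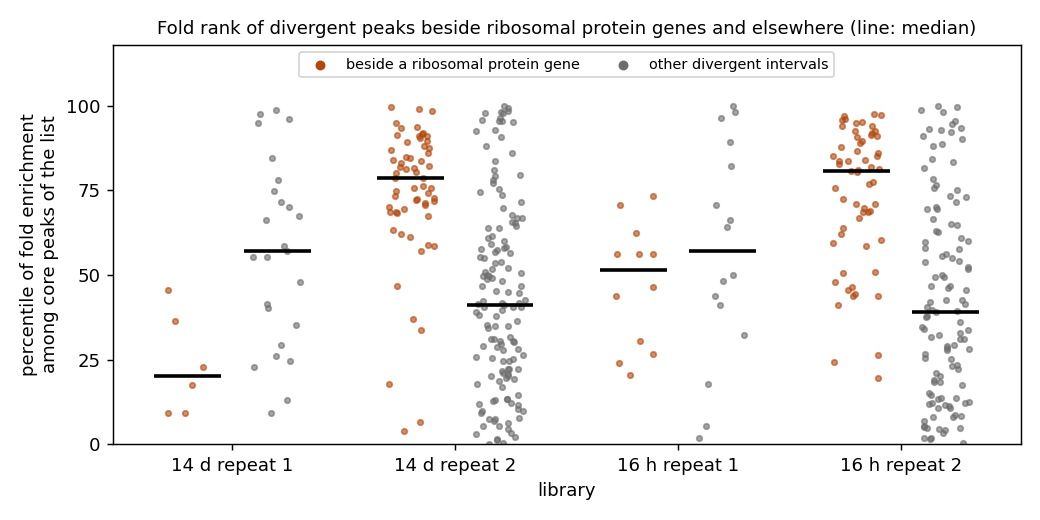
Percentile of fold enrichment among the core peaks of the list (100 is the highest) for divergent peaks beside a ribosomal protein gene (orange) and elsewhere (grey); each point is a peak and the line the median. Orange stands above grey in both repeat 2 lists, and below it, by medians, in both repeat 1 lists.

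The listing in repeat 1 of intervals that were strong in repeat 2 also differed between these groups. Among intervals with a fold of at least 10 in repeat 2 at 14 d, 6 of 54 beside a ribosomal protein gene (11.1%, exact 95% interval 4.19 to 22.6) were listed in repeat 1, against 23 of 43 others (53.5%, 37.7 to 68.8). Their median folds in repeat 2 were close, 20.7 and 18.3. At 16 h the counts were 11 of 44 (25%, 13.2 to 40.3) and 13 of 33 (39.4%, 22.9 to 57.9), with medians of 19.6 and 17.9. These are descriptions of 1 library pair at each time, and the part of library quality in them was not tested.

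Outside the ribosomal protein genes, the other gene groups are read against the 14.1% at 14 d and 12.6% at 16 h of all divergent intervals listed in repeat 2. Genes of glycolysis and fermentation were beside 10 divergent intervals, of which 5 were listed at 14 d and 6 at 16 h in repeat 2, and 0 in either repeat 1 list. The listed ones are long, from 872 to 2662 bp. Of all divergent intervals over 1500 bp, 40.4% were listed at 14 d and 29.8% at 16 h in repeat 2. For 750 to 1000 bp the share was 29.4% at both times. The part of length in these counts was not tested. PUP2-ENO1 (chrVII:999141-1000926), beside an enolase gene, had a fold of 20.2 at 14 d and 27.2 at 16 h. YMR082C-ADH3 (chrXIII:432126-434787), beside the mitochondrial alcohol dehydrogenase gene, had 13.7 at 14 d and 18.8 at 16 h. CYC3-CDC19 (chrI:69526-71785), beside the pyruvate kinase gene, had 10.5 at 14 d and 8.37 at 16 h. The 16 h peak at PDC6-CTT1 (chrVII:652982-654633), between a minor pyruvate decarboxylase gene and the cytosolic catalase gene, had a fold of 3.55 and no counterpart in the 14 d list.

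Translation factor genes lay beside 12 divergent intervals, of which TKL2-TEF2 and SSA1-EFB1 (chrI:141432-142173) were listed in both repeat 2 libraries. SSA1-EFB1, shared by an Hsp70 chaperone gene and a gene for a subunit of the elongation factor's exchange complex, had a fold of 4.67 at 14 d and 3.49 at 16 h. It was also the one interval of the 11 in the chaperone list found at both times. The others listed were PIR5-HSP150 (chrX:118826-120448), 2.41 at 14 d only, and CPR1-RPA14 (chrIV:769001-769524), 2.64 at 16 h only. Of these genes CPR1 encodes a prolyl isomerase, whereas HSP150 encodes a cell wall protein in spite of its name.

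Ribosome assembly genes were taken by symbol, so that all numbered MAK and DBP genes were counted, whatever their function. Of 44 intervals beside them, 5 were listed in each repeat 2 library. The 2 of highest rank, UTP6-RPS18A (chrIV:1358903-1359922; 20.7 at 14 d and 19.1 at 16 h) and RRP5-RPS10B (chrXIII:731124-732413; 17.7 at 14 d and 23.7 at 16 h), have a ribosomal protein gene as the other neighbour. The remaining 3 had folds between 2.43 and 7.54. Mitochondrial ribosomal protein genes, which are encoded in the nucleus, were also taken by symbol, so that MRX genes came with them. They were beside 40 intervals with 3 listed in each repeat 2 library, ENA1-RSM10 at the head. RSM7-YJR115W (chrX:638976-639941) followed, with 5.89 at 14 d and 3.97 at 16 h.

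Amino acid synthesis genes, taken by symbol so that purine genes and regulators came with them, lay beside 36 intervals with 5 listed in each repeat 2 library. PRO1-CFT1 (chrIV:1062792-1063351), beside the gene for the first enzyme of proline synthesis, had the highest rank, with 5.89 at 14 d and 8.11 at 16 h. Histone genes are the textbook divergent pairs of yeast, and 0 of 6 intervals beside them were listed in any library. In JDY86 a drug marker replaces HHF1-HHT1, and a synthetic H3-H4 cassette stands in place of HHT2-HHF2. Whether the native upstream DNA remains at these places is not stated. The genotype names no change at HTA2-HTB2, HTB1-HTA1, HTZ1-PLB3 or HHO1-NAN1. The interval GAL10-GAL1 (chrII:278353-279020), between galactose-induced genes, was also listed in none.

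The lists of each repeat nested at both times. The 31 intervals of the 14 d repeat 1 list were all in the 14 d repeat 2 list, and the 28 of the 16 h repeat 1 list were all in the 16 h repeat 2 list. Peaks of the 14 d repeat 2 list carry the word merge in their names. Whether repeats were pooled before that list was called is not stated, and the part of pooling in the 14 d nesting was not tested. Of the 205 intervals, 117 were in both repeat 2 lists alone, 14 in all but 16 h repeat 1 and 11 in all but 14 d repeat 1. No interval was in both lists of one time and neither of the other. The 159 intervals in both repeat 2 lists were 82.8% of the 192 at 14 d and 92.4% of the 172 at 16 h.

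Intervals in 1 repeat 2 list alone had low fold. The 33 found only in 14 d repeat 2 had a median fold of 3.22 and a highest of 7.85, and the 13 found only in 16 h repeat 2 had a median of 3.55 and a highest of 6.06. In the shared intervals the medians were 13.7 at 14 d and 9.93 at 16 h. Neither set of unshared intervals held 1 beside a ribosomal protein gene. Whether the unlisted peaks lay just under the calling threshold was not tested.

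Within repeat 2, fold at the 159 shared intervals ran closely together at both times (Spearman's rho 0.909 over the 159 intervals, given as a description since the intervals share their libraries). The median log2 difference, 14 d minus 16 h, was 0.29 (quartiles −0.10 to 0.59), and 113 of 159 were higher at 14 d. By summit pileup over the genome background the median was 0.16, with 100 of 159 higher. The 59 beside ribosomal protein genes had a median of 0.27 and the other 100 a median of 0.31, and the 154 shared tandem intervals, measured the same way, had 0.28.

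**Figure D5:**
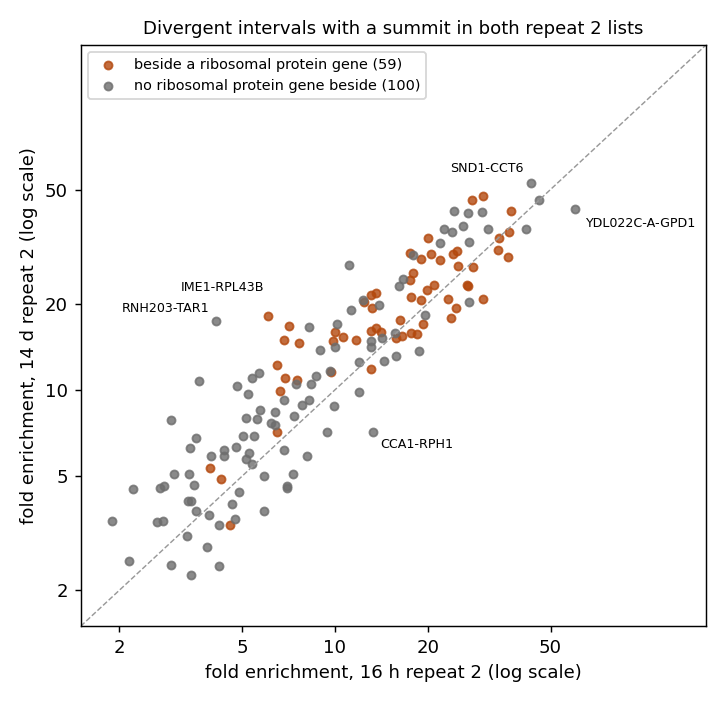
Fold enrichment at 14 d (y axis) against 16 h (x axis), both log scales, for the 159 divergent intervals listed in both repeat 2 libraries; orange points lie beside a ribosomal protein gene, grey ones do not, and the dashed line marks equal fold. Of these points 113 lie above the line, and the labelled intervals are the outermost ones and those at the top.

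At 12 of the 159 intervals fold was over 2 times higher at 14 d, and at 0 it was over 2 times higher at 16 h. The 154 shared tandem intervals gave nearly the same counts, 12 and 1. By summit pileup over the genome background the divergent counts were 7 and 1, the 1 being NOC4-ASN1. The intervals named here were chosen after their values were seen. After RNH203-TAR1, with a ratio of 4.21, came IME1-RPL43B (chrX:605652-608304), beside the master regulator gene of meiosis and holding the non-coding RNA gene IRT1. Its fold was 18.1 at 14 d and 6.08 at 16 h, and the summit lay 311 bp from RPL43B and 2343 bp from IME1 at both times. SYG1-YIL046W-A (chrIX:267824-268308) had 10.8 at 14 d and 3.62 at 16 h, and was in the 14 d but not the 16 h repeat 1 list, at 6.69. GLY1-IES6 (chrV:68793-69756), beside genes for threonine aldolase and a chromatin remodeller subunit, had 27.3 at 14 d and 11.1 at 16 h, and 7.39 in the 14 d repeat 1 list. Its log2 difference by pileup over the genome background was 0.62.

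The largest differences in the other direction were smaller. CCA1-RPH1 (chrV:522670-523368), between the gene for the enzyme that completes tRNA ends and a histone demethylase gene, had 7.15 at 14 d and 13.3 at 16 h. NOC4-ASN1 (chrXVI:821424-822619), beside a ribosome assembly gene and an asparagine synthetase gene, had 2.43 at 14 d and 4.22 at 16 h. Of the intervals named here for their difference in repeat 2, RNH203-TAR1 alone was also listed at both times in repeat 1, where 14 d was again the higher time. The others have no replicate check.

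The limit of 50 kb from a chromosome end left out intervals of the same kind. Just outside it lay VMA6-RPL6B on chromosome XII, 49485 bp from the end, with a fold of 11.9 at 14 d and 16.9 at 16 h in repeat 2. RPL8B-FPS1, at 48929 bp, had 16.4 at 14 d and 9.12 at 16 h. Just inside it lay SRP40-PTR2 on chromosome XI, at 52121 bp, with 11.6 at 14 d and 9.63 at 16 h, and then CCA1-RPH1, at 53948 bp.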

How the data were processed

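Per the labels and the study's methods, the authors trimmed paired-end reads with Trim Galore, mapped them with Bowtie2 to genome release R64 and called peaks of each ChIP library against its input with MACS2. Versions and settings are not given in the sources used here. The authors deposited 1 list per library, with peak and summit positions, fold enrichment (a ratio), −log10 p, −log10 q and a score equal to 10 times the −log10 q. Peaks of the 14 d repeat 2 library carry the word merge in their names, and whether sequencing runs or repeats were pooled there is not stated.

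Gene positions came from the RefSeq table of R64 (6002 nuclear protein-coding genes), with strand from the systematic name, and the furthest gene or peak stood for each chromosome end. Of several summits in an interval the highest fold was used. Summit pileup and background were solved from fold and −log10 p (100% of peaks, relative tolerance 0.0001). Intervals of shares are exact Clopper-Pearson intervals (95%). Python 3.11.15, NumPy 2.4.6, pandas 2.3.3 and SciPy 1.17.1 were used, and the code was tested on simulated data.

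The regions and gene lists were chosen with earlier results of these data known. Named were intervals in all 4 lists, the 10 best by mean rank of fold in repeat 2, intervals of one time only, and 2 to 4 examples beside each gene list. Alternatives were stricter peak sets, 20 kb ends, midpoints, other measures, left-out libraries and a replicate block. A motif search was planned and not run, because the genome sequence was not used here.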

Additional observations from a re-analysis of the deposited data

How the results depend on the processing

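The direction turned round in 4 cases. The 14 d minus 16 h difference in log2 fold was −0.077 as summit pileup over genome background, and the difference in nearer distance was −1.39 points as a percent of interval length. The excess of divergent over tandem intervals was −0.33 as summits per 100 facing start codons, an alternative added after seeing the data. The rank difference was −3.09 with a −log10 q of at least 5, where the 16 h repeat 1 library alone stood at −30.3. The cause was not tested. No result passed a threshold under any setting, since the design allows no p under 0.125. By over 1.5 times, without a change of sign, the share difference became −11.3 (−log10 q of at least 5) and −8.49 (top 84 peaks by fold), the rank difference 8.24 (20 kb ends) and 0.775 (no non-coding RNA genes), the excess 1.42 (top 84 peaks), 2.21 (200 to 1000 bp) and 2.23 (no ribosomal protein genes), and the log2 fold difference 0.75 (intervals in all 4 lists). Leaving out each library in turn gave −8.77 to −1.88 for the share, 0.25 to 0.63 for log2 fold, 7 to 55.5 bp for distance, 3.13 to 5.86 for rank and 2.74 to 4.28 points for the excess. With an overlap of 50% in place of a shared interval, the counts were still 17 and 159.

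With the repeat number as a block the differences stayed at −5.32 points, 0.44 and 31.25 bp, each at p = 0.5 (exact permutation), the smallest the block allows. Same-numbered deviations correlated at 0.256 over 17 intervals, and with 2 pairs this does not show that the numbers pair the samples. The smallest summit pileup listed was 10 and 29 fragments in the 14 d repeats and 5 and 24 in the 16 h repeats. What kept intervals out of the repeat 1 lists was not tested.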

Other observations

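The shortest divergent interval with a summit, MATALPHA2-MATALPHA1 (chrIII:200179-200441, 263 bp), was listed in 16 h repeat 2 only, with a fold of 4.05. The silent cassette HML carries the same alpha genes, so reads of HML and of an alpha MAT locus cannot be told apart by sequence. By the study's description the strain is MATa, and these reads would then come from HML and not from the interval named. This interval was picked after its value was seen. In 11 divergent intervals a list held more than 1 summit.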
